A study of Homo sapiens with 12 samples.

Results

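CCND1, CDKN1B, E2F3 and CDC25A are 4 genes of the G1/S transition, the step at which a cell commits to copying its DNA, and their mRNAs were examined here for the places bound by AGO2. They are 4 of 20037 annotated protein-coding genes and of the 1564 in which a region bound by AGO2 was listed. A region was counted for a gene when it overlapped the gene's RefSeq span by at least 1 base on the gene's strand. By this rule the genes held 16 of the 1190 regions of the wild-type (WT) list and 18 of the 2921 regions of the 5xA list. The genes were selected on their numbers of regions and covered bases in these same lists, so numbers, bases, positions and sharing are given as descriptions, with no test.

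AGO2 is the Argonaute protein that carries miRNAs, short RNAs that pair with target mRNAs and lower their translation and stability. The RNA was mapped by eCLIP in HCT116, an established human colorectal carcinoma line, cultured for 48 h before ultraviolet crosslinking at 400 mJ/cm2. In eCLIP the crosslinked protein is immunoprecipitated (IP) and its RNA fragments are sequenced, here with an anti-FLAG antibody. The 12 samples form 6 groups of 2, an input and an IP for each of the genotypes AGO2_KO, FH-AGO2_WT and FH-AGO2_5xA. In 5xA a cluster of phosphorylated residues of AGO2 is replaced by alanine, which removes the sites of a phosphorylation cycle. How the tagged forms were introduced, and whether a line is a clone, was not stated in the labels used here. Each list names both IP replicates of its genotype, so there is 1 merged list per genotype and no replicate error. The comparison concerns the RNA that WT and 5xA AGO2 bind. The inputs and the AGO2_KO samples, 8 in all, were not analysed here, and no knockout background was set beside these regions.

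CCND1 encodes cyclin D1, which activates CDK4 and CDK6 early in G1 so that they phosphorylate the retinoblastoma protein. E2F3 is among the transcription factors that the retinoblastoma protein holds in check and that switch on genes of DNA replication. CDC25A is the phosphatase that removes inhibitory phosphates from CDK2, and CDKN1B encodes p27, an inhibitor of cyclin E and CDK2. The mRNAs of these regulators are textbook targets of miRNAs, among them let-7, miR-16, the miR-17 family, miR-34a, miR-21 and miR-181.

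Of the miRNAs in the families searched whose own genes also held a region, 7 are shown, as candidate guides of the AGO2 in these cells, with let-7a standing for the let-7 family. The mature let-7b, let-7f, let-7g and let-7i, whose genes held regions too, have the same seed as let-7a. They are written 5′ to 3′ from RefSeq's table on GRCh38.p14, with the seed, bases 2 to 8, in capitals.
hsa-let-7a-5p: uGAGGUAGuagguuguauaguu
hsa-miR-16-5p: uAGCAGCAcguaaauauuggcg
hsa-miR-93-5p: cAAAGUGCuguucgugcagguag
hsa-miR-106b-5p: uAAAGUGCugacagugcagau
hsa-miR-34a-5p: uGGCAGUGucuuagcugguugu
hsa-miR-21-5p: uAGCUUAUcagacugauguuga
hsa-miR-181a-5p: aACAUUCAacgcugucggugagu
The miR-93 and miR-106b seeds are the same, and each other miRNA shown has a seed of its own. Sequence under the mRNA regions was not used here, so no region was searched for a match to these seeds.

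Of 51 genes of 12 miRNA families reported to act on such mRNAs, 12 held a region in both lists and 2, MIRLET7F1 and MIRLET7G, in the 5xA list only. Of the 12 in both lists, 6 were let-7 genes. Among these, MIRLET7A1, MIRLET7A2 and MIRLET7A3 encode the same mature let-7a. How reads that match several genes of 1 miRNA were placed is not known here. Such genes are therefore not independent counts, and the same limit holds where they held no region. Of all 1913 annotated miRNA genes, 1.1% held a region in the WT list and 1.78% in the 5xA list. These shares are per list and count miRNA genes whether or not HCT116 cells express them. The WT region at MIR34A lay at chr1:9151692-9151756 and the 5xA region at chr1:9151691-9151756, both over the whole mature 5p strand. That strand is chr1:9151735-9151756, so both regions ran on downstream of it and do not single it out. At MIR16-1 the regions were chr13:50048984-50049048 with WT and chr13:50048983-50049048 with 5xA. At MIR181A1 both lists gave chr1:198859066-198859130, and at MIR21 they gave chr17:59841270-59841338 with WT and chr17:59841269-59841338 with 5xA. Genes of the miR-221 and miR-222, miR-24, miR-19, miR-125, miR-196 and miR-503 families held no region in either list, although miR-221 and miR-222 are known regulators of CDKN1B.

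In both lists, all regions of the 4 mRNAs lay at the downstream end of the gene, the side of the 3' UTR. Positions were not taken over the whole lists, so this is not read as particular to the 4 genes. The region edge farthest from the gene end was 3112 bases away, in E2F3, and the nearest was 34 bases away, in CCND1. Exons were not part of the gene table, so no region was assigned to the UTR itself. The WT regions were 73 to 547 bases wide (median 120) and the 5xA regions 77 to 465 bases (median 209.5), beside medians of 114 and 104 bases over the whole lists. By gene the 5xA medians were 364 bases in CCND1, 267 in E2F3, 115 in CDKN1B and 104.5 in CDC25A. The WT medians were 343, 108, 98 and 138 bases in the same order. Covered bases were among the values used to choose the genes, so nothing is read from these widths.

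**Figure D1:**
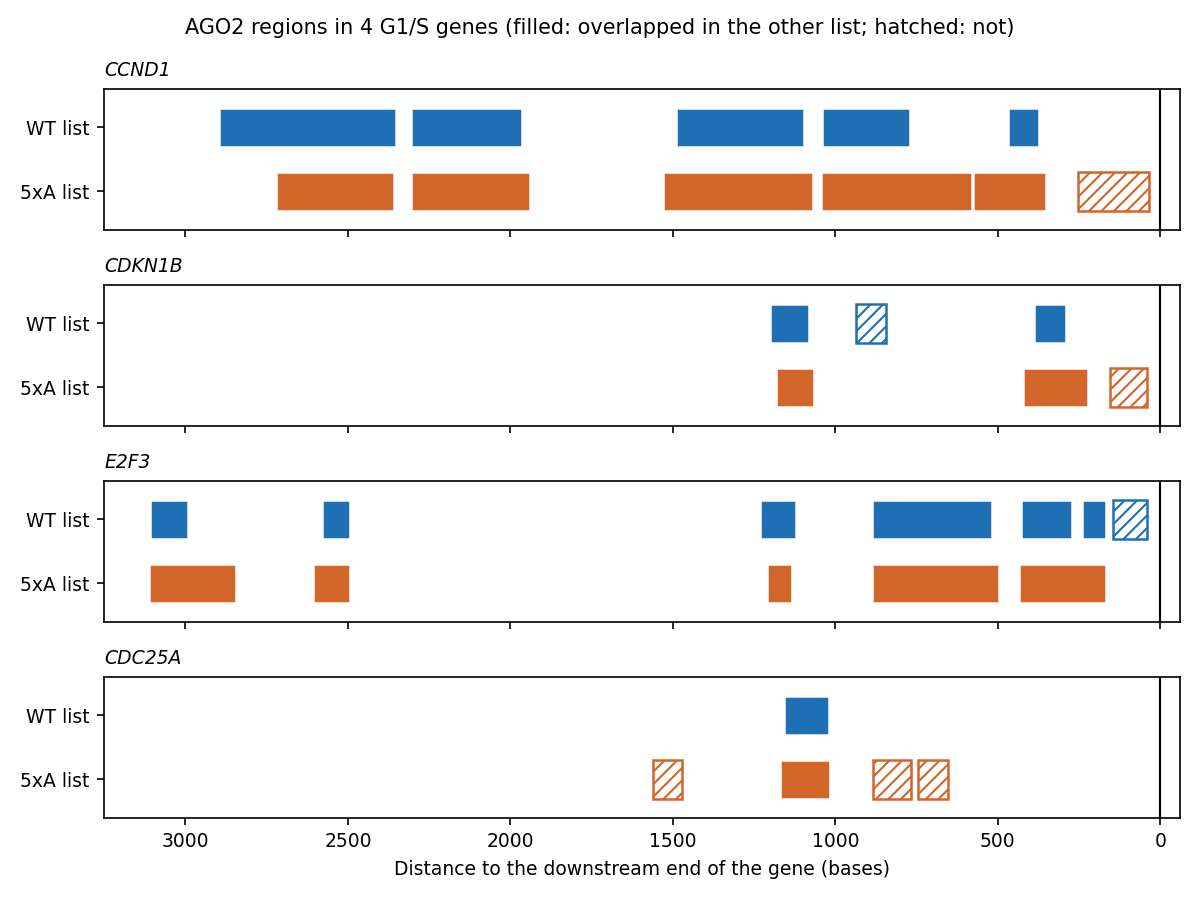
Regions of the WT list (blue) and the 5xA list (orange) in the 4 genes, drawn by distance in bases to the downstream end of the gene, which is the black line at 0. Filled bars overlap a region of the other list and hatched bars do not, and in every gene the bar nearest the line is hatched.

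CCND1, on the plus strand of chromosome 11 from 69641156 to 69654474, was the most densely covered of the 4. Its 5 WT regions spanned 1650 bases and its 6 5xA regions 2100 bases, or 124 and 158 covered bases per kb of gene. In the WT list they lay at chr11:69651577-69652123, chr11:69652168-69652510, chr11:69652985-69653377, chr11:69653433-69653703 and chr11:69654006-69654101. In the 5xA list they lay at chr11:69651754-69652114, chr11:69652169-69652535, chr11:69652943-69653406, chr11:69653431-69653895, chr11:69653898-69654121 and chr11:69654222-69654440. Each WT region of CCND1 thus had a 5xA partner in the same order along the mRNA, and the last 5xA region had none. That unpartnered region was 219 bases wide, began 121 bases beyond the nearest WT region and ended 34 bases before the gene end. The fourth and the fifth 5xA regions were parted by only 2 bases, where the WT list had a gap of 302 bases. The first pair was the exception to wider 5xA regions, since the WT region began 177 bases further upstream and was 547 bases wide against 361 bases. The footprint of CCND1, from its first to its last covered base, was 2864 bases, of which WT regions covered 57.6% and 5xA regions 73.3%.

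E2F3, on the plus strand of chromosome 6 from 20401879 to 20493714, was the member with the most WT regions. It held 7 WT regions over 1020 bases and 5 5xA regions over 1120 bases. The WT regions were chr6:20490604-20490721, chr6:20491134-20491221, chr6:20492484-20492591, chr6:20492827-20493197, chr6:20493285-20493442, chr6:20493474-20493546 and chr6:20493569-20493672. The 5xA regions were chr6:20490602-20490868, chr6:20491106-20491221, chr6:20492504-20492580, chr6:20492827-20493218 and chr6:20493279-20493546. The last 5xA region spanned the fifth and the sixth WT regions together, so the lower 5xA number did not mean fewer covered bases. When regions within 50 bases were joined, E2F3 held 5 in each list and CCND1 held 4 in each. The last WT region, 104 bases wide and 42 bases from the gene end, had no 5xA partner, but the nearest 5xA region ended 23 bases away. In E2F3, 86.8% of the WT bases lay inside 5xA regions and 79% of the 5xA bases inside WT regions. Over the 600 protein-coding genes with a region in both lists the medians of these shares were 94.3% (quartiles 73.4 and 100) and 55% (quartiles 34.3 and 79.4). The first share of E2F3 was thus below the median and the second near the upper quartile. The regions fell in 2 stretches, with a gap of 1262 bases in the WT list and 1282 bases in the 5xA list between the second and the third region. Their footprint of 3071 bases was 3.34% of a gene of 91836 bases.

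CDKN1B, on the plus strand of chromosome 12 from 12717368 to 12722369, held 3 WT and 3 5xA regions. Those with WT were chr12:12721167-12721288, chr12:12721433-12721524 and chr12:12721981-12722078, 312 bases in all. The 5xA regions were chr12:12721188-12721302, chr12:12721946-12722145 and chr12:12722214-12722328, 430 bases in all. In CDKN1B the equal number therefore hid a different set, since 2 regions of each list had a partner and 1 of each list did not. The unpartnered WT region of 92 bases lay 131 bases from the nearest 5xA region, and the unpartnered 5xA region of 115 bases lay 136 bases beyond the nearest WT region, towards the gene end. Of the WT bases 63.8% lay inside 5xA regions, and of the 5xA bases 46.3% lay inside WT regions. The first share was below the lower quartile of the 600 genes and the second within their quartiles.

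CDC25A, on the minus strand of chromosome 3 from 48157146 to 48188417, had the largest difference in region number among the 4. Its WT list held a single region, chr3:48158166-48158303, of 138 bases. Its 5xA list held 4, in the order of transcription chr3:48158617-48158708, chr3:48158164-48158316, chr3:48157913-48158029 and chr3:48157801-48157892, over 454 bases. The WT region lay wholly inside the second 5xA region, whose upstream edge was 13 bases and whose downstream edge was 2 bases further out. The 3 other 5xA regions of CDC25A were 92 to 117 bases wide and lay on both sides of it, 314 bases upstream and 137 and 274 bases downstream. With regions within 50 bases joined, the 5xA number in CDC25A was 3. In CDC25A 100% of the WT bases lay inside 5xA regions and 30.4% of the 5xA bases inside WT regions. The second share was below the lower quartile of the 600 genes (34.3). For CCND1 these shares were 88.7% and 69.7%, each within the quartiles.

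**Figure D2:**
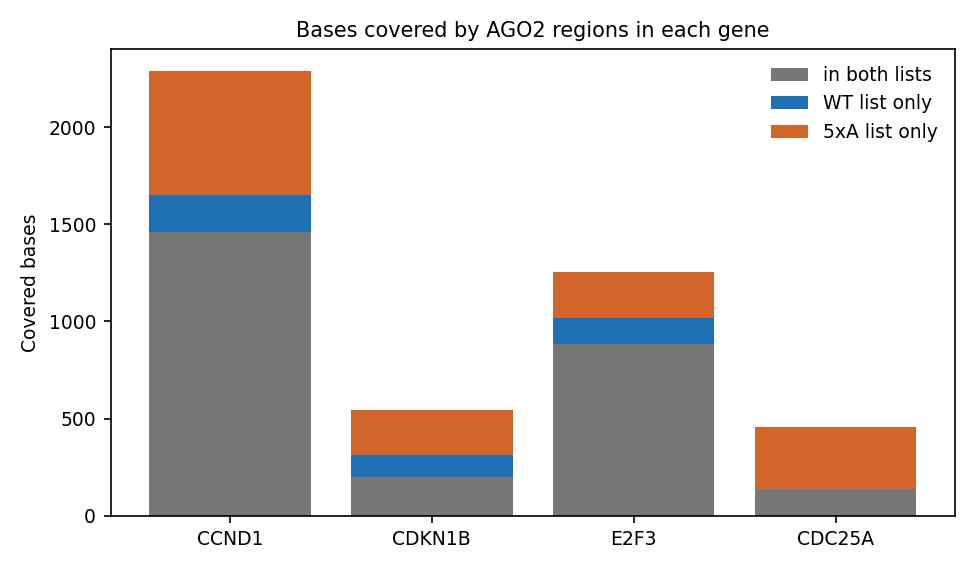
Covered bases of each gene, stacked as bases in both lists (grey), in the WT list only (blue) and in the 5xA list only (orange). Bases in both lists make up most of CCND1 (1463) and E2F3 (885), and bases of the 5xA list only make up most of CDC25A (316).

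Over the 4 genes 14 of 16 WT regions (87.5%) overlapped a 5xA region, beside 81.3% of the whole WT list. Of the 18 5xA regions 13 (72.2%) overlapped a WT region, beside 32.3% of the whole 5xA list. The genes were chosen because both lists held regions in them, which raises both shares, so nothing is read from either. Covered bases were 3120 with WT and 4104 with 5xA, a ratio of 1.32, and 2685 bases were common to both. The ratio of 5xA to WT bases was 1.1 in E2F3, 1.27 in CCND1, 1.38 in CDKN1B and 3.29 in CDC25A. Over the 600 protein-coding genes with a region in both lists its median was 1.51 (quartiles 1.06 and 2.28), so E2F3, CCND1 and CDKN1B lay in the middle range and CDC25A above the upper quartile. All 4 had more covered bases with 5xA, as did 82.3% of the 600 genes.

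Being in both lists is what the choice of genes required, and 2.99% of all protein-coding genes were, with 3.35% in the WT list and 7.45% in the 5xA list. CCND1, E2F3 and CDKN1B held at least 3 regions in each list, which 12% of the 600 genes did. E2F3 was among the 6% with fewer 5xA than WT regions, CDKN1B among the 44.2% with equal numbers, and CCND1 and CDC25A among the 49.8% with more. In the order of the 600 genes by covered bases, CCND1 ranked 8 with WT and 11 with 5xA, and E2F3 ranked 23 and 47. CDKN1B ranked 122 and 189. CDC25A ranked 325 with WT, below the middle of the order, and 171 with 5xA.

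**Figure D3:**
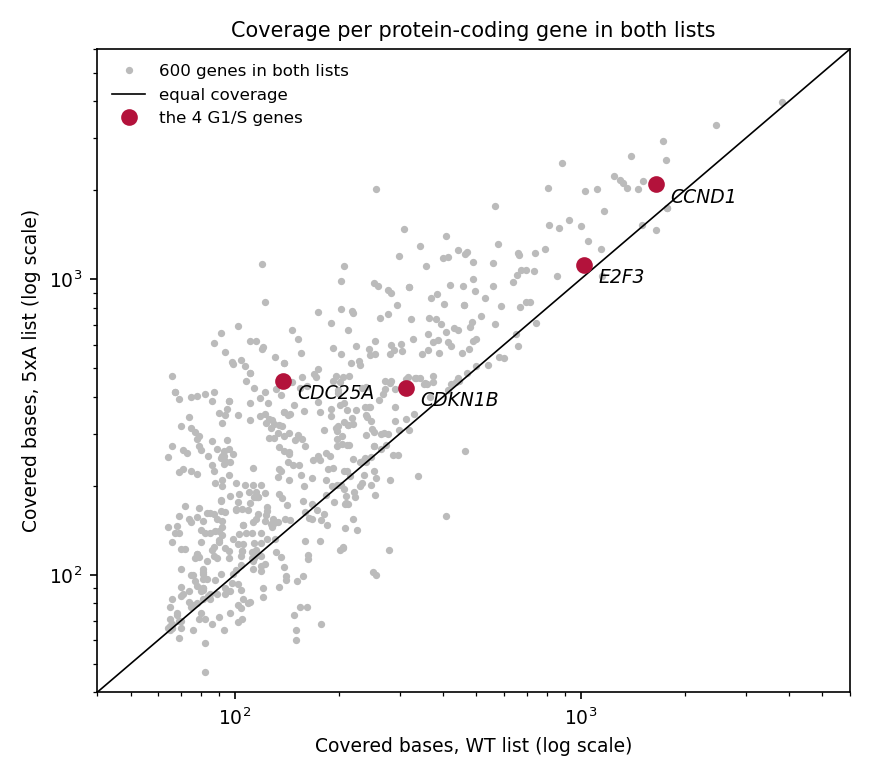
Covered bases of the 600 protein-coding genes with a region in both lists, WT list on the horizontal and 5xA list on the vertical axis, both on log scales, with the 4 genes in red. CDC25A lies farthest above the line of equal coverage of the 4, at 138 and 454 bases, and E2F3 lies closest to it.

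Where a WT and a 5xA region overlapped each other and no further region, their edges could be compared in the direction of transcription. There were 12 such pairs in the 4 genes, of which 9 had a wider 5xA region and 3 a wider WT region. Over all 847 such pairs, 66.8% had a wider 5xA region. The difference in width ranged from -186 bases in the first pair of CCND1 to 194 bases in the fourth pair of this gene. Its median was 26 bases, beside 14 bases over all pairs. The downstream edges lay within 25 bases of each other in 8 of the 12 pairs and the upstream edges in 7. Over all 847 pairs this held for 601 downstream and 580 upstream edges, so such closeness was not particular to the 4 genes. In E2F3 the second pair ended at the same base and the fourth pair began at the same base. At least 1 edge was thus identical in 2 of 12 pairs, beside 15.2% of all pairs. The shifts beyond 100 bases were in CCND1, by 177 bases downstream in the first pair, 192 bases downstream in the fourth and 108 bases upstream in the fifth, and in E2F3, by 147 bases downstream in the first.

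**Figure D4:**
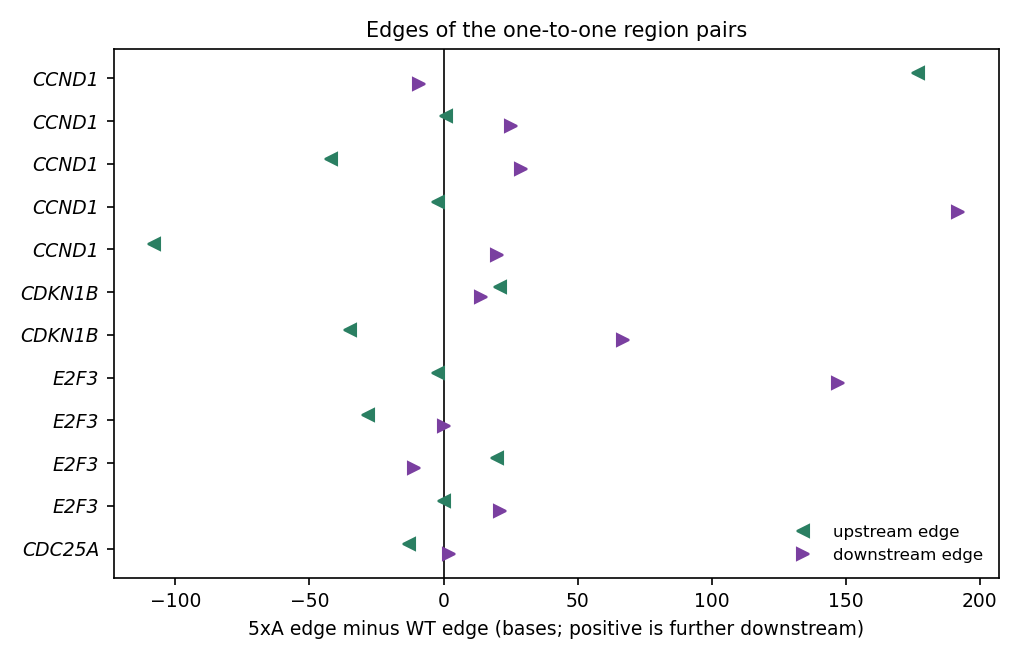
Position of the 5xA edge minus the WT edge, in bases, for the 12 region pairs, with upstream edges as green triangles and downstream edges as purple triangles, in order of transcription within each gene. Most points lie near 0, and the points beyond 100 bases belong to CCND1 and E2F3, with 1 at 67 bases for CDKN1B.

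In all 4 genes the region nearest the gene end was found in 1 list only. It was a 5xA region in CCND1, CDKN1B and CDC25A and a WT region in E2F3. The E2F3 region lay 23 bases from a 5xA region, so with regions within 50 bases counted as shared the number was 3 of 4. Of the 389 genes in both lists with 2 or more regions in a list and regions on 1 strand, 51.2% had such an unpartnered last region (44.2% with regions within 50 bases counted as shared) and 53.5% an unpartnered first region. In the 4 genes the first region was unpartnered only in CDC25A. Unequal region numbers make an unpartnered end more likely, as in CDC25A with 1 WT and 4 5xA regions. Region numbers were also used to choose the genes, so the last regions are not read as a trait of the 4 genes.

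Regions were also counted in a list of 67 genes of the G1/S machinery. Of the 63 besides the 4 members, 10 held regions with both forms, 8 with 5xA alone and 0 with WT alone. In all, 18 of the 63 (28.6%) held a region, beside 7.81% of all protein-coding genes, whether or not HCT116 cells express them. Both shares count regions anywhere in the gene, not only near its downstream end. The only ATR region lay 89208 bases from the gene end and the only SKP1 region 8265 bases. In FBXW7 a 5xA region lay 214718 bases from the end. Over all protein-coding genes, 4.45% held regions with 5xA alone and 0.359% with WT alone. The list was written with earlier results known and was not tested.

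Among D cyclins and their kinases, CDK6 held 1 WT region (111 bases) and 5 5xA regions (620 bases). CCND2, CCND3 and CDK4 held none, so CCND1 was the only D cyclin gene with a region. The CDK6 regions lay 2347 to 9834 bases from the gene end, and its WT region, chr7:92608620-92608730, overlapped the 5xA region chr7:92608608-92608710. Of the CIP/KIP inhibitors, which block cyclin-CDK complexes, CDKN1A held 6 WT and 4 5xA regions and CDKN1C held none. The 4 genes of the INK4 inhibitors of CDK4 and CDK6 held none.

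CCNE1, the cyclin partner of CDK2, held 1 region in each list, chr19:29823971-29824089 with WT and chr19:29823969-29824084 with 5xA, so its edges differed by 2 and 5 bases. CCNE2, CCNA2 and CDK2 held none. CDC25B, a paralog of CDC25A, held 1 WT and 3 5xA regions (375 and 612 bases), and CDC25C held none. Like CDC25A, CDC25B had more regions and more covered bases with 5xA, as did 49.8% and 82.3% of the 600 genes in both lists. WEE1, the kinase that adds the phosphates CDC25 enzymes remove, held 2 regions in each list (281 and 210 bases).

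Among the E2F and DP factors, E2F3 was the only gene of 10 in both lists. Its activator paralogs E2F1 and E2F2 held 1 region each in the 5xA list only (58 and 135 bases), as did the repressor E2F4 (128 bases). The retinoblastoma family genes RB1, RBL1 and RBL2 held none. Among genes of cyclin and inhibitor turnover, FBXW7, which marks cyclin E for destruction, held 1 WT and 2 5xA regions, and FBXO31 held 1 in each list. SKP2, which directs the destruction of p27, held 2 regions in the 5xA list only, 9565 and 16242 bases from its gene end, and SKP1 held 1 in the 5xA list only.

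Of 14 checkpoint and licensing genes, MCM7 was in both lists, and ATR and CDT1 held 1 region each in the 5xA list only. Each MCM7 region overlapped MIR93, MIR106B or both, and these miRNA genes lie inside MCM7. The WT regions were chr7:100093773-100093837 and chr7:100093999-100094063, each 65 bases wide and each over 1 of the mature miRNAs shown above, while a single 5xA region of 291 bases ran from the start of the first to the end of the second. MCM7 may therefore be counted for its miRNAs alone. Among upstream regulators, MYC held 1 WT and 3 5xA regions (146 and 450 bases), FOXO3 held 1 in each list, and GSK3B held 1 in the 5xA list only.

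**Figure D5:**
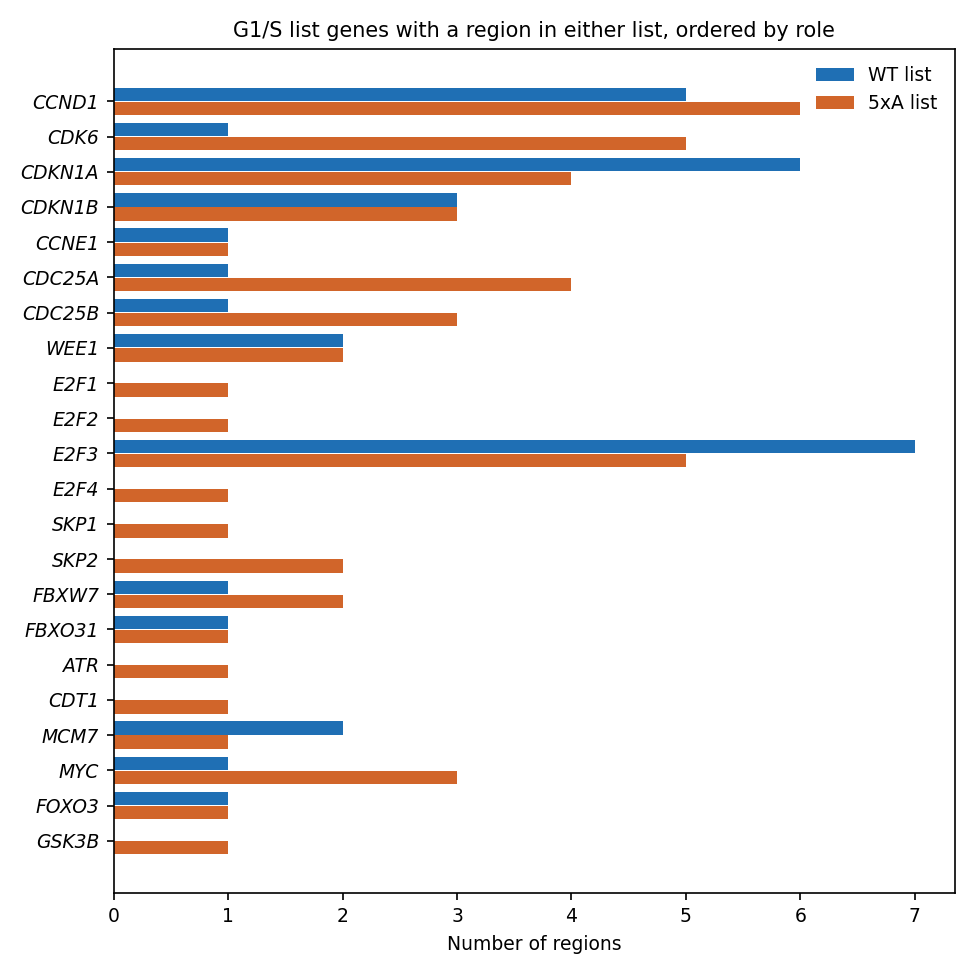
Number of regions in the WT list (blue) and the 5xA list (orange) for the 22 genes of the G1/S list with a region in either list, ordered by role from D cyclins at the top to upstream regulators at the bottom. CCND1, CDKN1A and E2F3 hold the most WT regions (5, 6 and 7), and no gene has a blue bar alone.

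The genes most like each member were taken by distance over 4 values, the log2 of 1 plus the regions and of 1 plus the covered bases in each list. Nearest to CCND1 was IGF2, at 6 WT and 5 5xA regions and 1779 and 1740 bases, with the readthrough gene INS-IGF2 counted on the same regions, followed by ZFP36L1 (4 and 5 regions). Nearest to E2F3 were SPRY4 (7 and 6 regions, distance 0.329), CDKN1A (6 and 4, distance 0.424) and PLXNA1 (5 and 5). MYADM, PANK3 and ANKRD33B, each with 3 WT and 4 5xA regions, were nearest to CDKN1B. PDE4A (1 and 4 regions, 132 and 425 bases, distance 0.114) and PRRC2B were near to CDC25A. These distances cover 2 lists only and describe amounts, not shared positions.

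The members were set beside 2 gene groups with like numbers of regions. The p53 targets CDKN1A, MDM2 and BTG2 held 17 WT and 19 5xA regions, and the let-7 targets HMGA2, HIC2 and YOD1 held 17 and 19 as well. The ratio of 5xA to WT bases was 1.65 for the p53 targets, 1.06 for the let-7 targets and 1.32 for the members. The single genes overlapped, from 1.29 (CDKN1A) to 2.04 (MDM2) among the p53 targets and from 0.889 (HIC2) to 1.78 (YOD1) among the let-7 targets, against 1.1 to 3.29 among the members. HMGA2 alone gave 3811 of the 5925 WT bases of the let-7 targets. The share of 5xA bases inside WT regions was 57%, 86.4% and 65.4% in the order p53 targets, let-7 targets and members. With 1 merged list per genotype these differences have no replicate check and were not tested.

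The depth behind each list is unknown, and over the whole genome the 5xA list held 2.45 times the regions and 2.35 times the covered bases of the WT list. A region found in 1 list only may lie below the unstated threshold of the other, and differences in depth, threshold, mRNA amount and binding cannot be told apart. Markers were looked up by the same rule: 2 of 8 colorectal epithelial genes (CLDN4 and VIL1), 1 of 4 fibroblast genes (COL1A1) and 0 of 4 blood genes held a region. Region lists give no expression levels, so these counts do not check the cell type.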

How the data were processed

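Intervals were read from region lists, 1 for the FH-AGO2_WT IP and 1 for the FH-AGO2_5xA IP, each given by the labels for both IP replicates. Per the submitters' processing notes, the tools were cutadapt 1.9.1 and TopHat2 and the build was hg38. Neither labels nor files state the caller, its cutoff, the rule that merged replicates or the use of inputs. The deposited score is 0 in every row and was not used. Depth is unknown.

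Gene spans came from RefSeq's GRCh38.p14 table, whose chromosomes have hg38 coordinates, and strands from RefSeq's promoter and miRNA tables. For 4194 of 20037 protein-coding genes, CCND1 among them, no strand was matched and regions of either strand were counted. All CCND1 regions were on the plus strand, and 0 other genes lay within 1000 bases. Overlaps of at least 1 base on the same strand were computed in Python 3.11.15, checked against bedtools 2.31.1 and tested on simulated data. Covered bases are the union of a list's regions. Members, lists and the naming rule were chosen with earlier results of these data known. The rule named the 4 members, all G1/S list genes with a region, the 3 most like genes of each member and 6 genes of like groups, and 1 of these is not reported here.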

Additional observations from a re-analysis of the deposited data

How the results depend on the processing

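Of 80 values recomputed under 8 settings, 78 stayed within 1.5 times the main value. Ignoring strand, using region midpoints and extending genes left every value unchanged, so these settings say little about stability. Joining regions within 50 bases stayed within that bound but gave E2F3 5 and CCND1 4 regions in each list. The difference in region number between the lists was thus lost in these genes. The settings joined regions within 50 bases, ignored strand, used region midpoints, extended genes by 1000 bases, changed the sharing rule, left out regions over more than 1 gene or required at least 2 regions per list. The last setting moved the G1/S genes in both lists from 14 to 5 and those in the WT list only from 0 to 1, the latter being MCM7. It also left CDC25A in the 5xA list only. A reciprocal overlap of 50% left 10 WT and 10 5xA regions of the members shared, against 14 and 13, and sharing within 50 bases gave 15 and 13. Without regions over more than 1 gene, MCM7 held none. That setting also kept only 8 of the 12 genes named as most like the members, while at least 2 regions per list kept 11. No paired analysis was possible because each list merges its replicates, and for the same reason no replicate could be left out. Seed matches were planned and not run, since no genome sequence was used here. Depth and a stricter threshold could not be examined, because every deposited score is 0.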
